A study of Mus musculus with 6 samples.

Results

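Bone morphogenetic proteins (BMPs) are secreted signals of the transforming growth factor beta family. The 9 genes described here encode 5 BMP ligands (Bmp2, Bmp3, Bmp4, Bmp6 and Bmp7) and 4 secreted antagonists or modulators of those ligands (Grem1, Nog, Chrd and Bmper). They were taken by gene symbol from 55055 genes measured by RNA-seq in the myometrium (the muscular wall of the uterus) of mice late in pregnancy. The set was chosen by the difference between knockout and wild type, since Grem1 and Bmp3 were higher in the knockout, so the genotype difference of its members is a description. Calls made over all genes are given for them beside the share called of all genes, and nothing is read from them.

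The 3 KO libraries came from pregnant mice in which Tcf23, a gene for a basic helix-loop-helix (bHLH) protein, had been knocked out with CRISPR/Cas9. The 3 WT libraries came from pregnant Tcf23 wild-type mice. All 6 were labelled E19.5, and the series design gives gestational day 19 and a different animal for each library. The sources used here do not give strain, maternal age, the edited allele or the number of founder lines. Tcf23 had 0, 2 and 1 counts in KO replicates 1, 2 and 3, against 4203, 5970 and 3360 counts in WT replicates 1, 2 and 3, so the labels and the counts matched in 6 of 6 libraries.

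BMP ligands act as dimers that bridge type I and type II receptor kinases on the cell surface. The type I receptor then phosphorylates SMAD transcription factors, and genes such as the Id family are switched on. Antagonists bind the ligands outside the cell and keep them from the receptors. In mouse uterus, Bmp2 is required for the stroma to become decidua after implantation. BMP3 is an unusual ligand that acts against other BMPs in mouse bone. Gremlin 1, the product of Grem1, binds BMP2, BMP4 and BMP7. Noggin (Nog) covers the receptor-binding faces of its ligands, chordin (Chrd) holds ligands until tolloid proteases cut it, and the product of Bmper binds both BMPs and chordin.

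Total counts were 39939686 to 65036402 per library, and levels are given as CPM, a gene's counts scaled to the library's total. Smooth muscle markers (12 of 12 detected, among them Acta2, Actg2, Myh11 and Des) summed to 38970, 44050 and 18200 CPM in KO replicates 1, 2 and 3, against 35550, 35050 and 30670 CPM in WT replicates 1, 2 and 3. KO replicate 3 therefore held the lowest share of smooth muscle marker RNA. Uterine epithelial markers (10 of 10 detected) summed to 3374, 2311 and 5892 CPM in KO replicates 1, 2 and 3. In WT replicates 1, 2 and 3 they summed to 3122, 2031 and 4800 CPM. Placental and fetal membrane markers (16 of 17 detected, Prl3d1 at 0) summed to 337, 46.0 and 4.46 CPM in KO replicates 1, 2 and 3, against 42.2 to 46.5 CPM in WT. Decidual markers (8 of 8 detected, Prl3c1 with 1 count in all) summed to 84.3 to 149 CPM in KO and 47.4 to 72.1 CPM in WT. The gap in the sum came mostly from Prl8a2, a decidual prolactin family gene: without it the sums were 77.5, 41.9 and 60.7 CPM in KO replicates 1, 2 and 3, against 51.0, 43.7 and 55.2 CPM in WT replicates 1, 2 and 3, and KO replicate 2 was the lowest. All 7 tested decidual markers had a positive log2 change. Prl6a1, another gene of that family, also did not overlap (2.52 to 5.37 CPM in KO and 1.35 to 1.69 CPM in WT). The other tested decidual markers overlapped between genotypes. Mesothelial markers (9 of 9 detected, 1 with a positive log2 change) summed to 397 to 1169 CPM in KO and 626 to 1159 CPM in WT, and without the abundant keratin gene Krt7 to 78.2 to 111 CPM in KO and 141 to 280 CPM in WT. Leaving out the most abundant gene of each list was chosen after the values were seen, and no other list of the 8 had sums without overlap, with or without it. In bulk tissue, fewer cells of a type and less RNA per cell cannot be told apart.

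Grem1 was the member with the greatest relative difference and the lowest level. Its gene (ENSMUSG00000074934) lies on the minus strand of mm10 chromosome 2, at 113746164 to 113758646, and overlaps no other annotated gene. Stretches just before a gene start are shown because Tcf23 encodes a bHLH protein and many dimers of that class bind the E-box, CANNTG. Whether the Tcf23 product itself binds such sites was not tested, and nothing about its action is read from the matches. The first precedes Grem1 and the second precedes Bmp4, the ligand with the highest level in WT. Both are the 250 bases before the RefSeq start on the GRCm38.p6 build, read 5′ to 3′ on the gene's strand (minus for both), at chr2:113758649-113758898 and chr14:46390670-46390919. Capitals mark CANNTG and the SMAD-binding GC element GGCGCC, each searched on both strands; both patterns read the same on either strand.
Grem1: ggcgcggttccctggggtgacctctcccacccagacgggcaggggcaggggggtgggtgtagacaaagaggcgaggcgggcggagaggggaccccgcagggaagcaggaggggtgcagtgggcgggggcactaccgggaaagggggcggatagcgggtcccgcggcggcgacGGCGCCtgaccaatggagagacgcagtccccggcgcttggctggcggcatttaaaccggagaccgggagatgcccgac
Bmp4: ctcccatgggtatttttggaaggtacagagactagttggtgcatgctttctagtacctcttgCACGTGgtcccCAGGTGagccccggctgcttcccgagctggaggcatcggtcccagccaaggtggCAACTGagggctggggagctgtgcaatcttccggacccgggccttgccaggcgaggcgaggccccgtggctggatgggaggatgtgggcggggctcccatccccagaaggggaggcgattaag
The Grem1 window held 0 matches to CANNTG and 1 to GGCGCC. The Bmp4 window held 3 matches to CANNTG and 0 to GGCGCC. Among 32851 RefSeq promoter windows of the same length, 66.2% held CANNTG and 9.59% held GGCGCC. RefSeq windows were found for 5 of the 9 members. Those of Chrd (1 match to GGCGCC) and Bmper (0) held 0 matches to CANNTG, and that of Bmp6 held 2.

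In KO replicates 1, 2 and 3 Grem1 had 36, 46 and 30 counts, against 2, 1 and 3 counts in WT replicates 1, 2 and 3. These correspond to 0.560, 0.829 and 0.732 CPM in KO, and 0.0429, 0.0193 and 0.0535 CPM in WT, with library totals scaled by TMM (trimmed mean of M values) for every CPM of a single gene. The gene was thus near the limit of detection in every WT library and low but present in every KO library. Over summed counts the KO level was 18.1 times the WT level, with an exact 95% interval of 8.04 to 50.2 that describes counting error only and is no test of the genotype difference. The fitted log2 change was 4.11 ± 0.44 (SE), and it lay between 3.80 and 4.42 when any 1 library was left out. Grem1 passed the filter on low counts only through the KO libraries.

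Bmp3 was the most abundant member whose genotypes did not overlap. It lies on mm10 chromosome 5 at 98854415 to 98884396 (ENSMUSG00000029335, plus strand), 67.9 Mb from Tcf23 on the same chromosome. It had 19.7, 24.8 and 24.9 CPM in KO replicates 1, 2 and 3, against 6.69, 6.98 and 9.31 CPM in WT replicates 1, 2 and 3. It averaged 23.1 ± 2.97 CPM in KO and 7.66 ± 1.44 CPM in WT (SD, n = 3 each). The fitted log2 change was 1.59 ± 0.18, with a range of 1.51 to 1.75 when 1 library was left out. Decidual Prl8a2 was also higher in every KO library (23.1 to 81.2 CPM in KO and 3.72 to 16.7 CPM in WT), as was decidual Prl6a1. The mesothelial sum without Krt7 was lower in every KO library, a gap that in WT replicate 3 rested on Msln. The part of smooth muscle, epithelial, placental, decidual or mesothelial RNA in the Bmp3 and Grem1 differences was not tested.

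**Figure D1:**
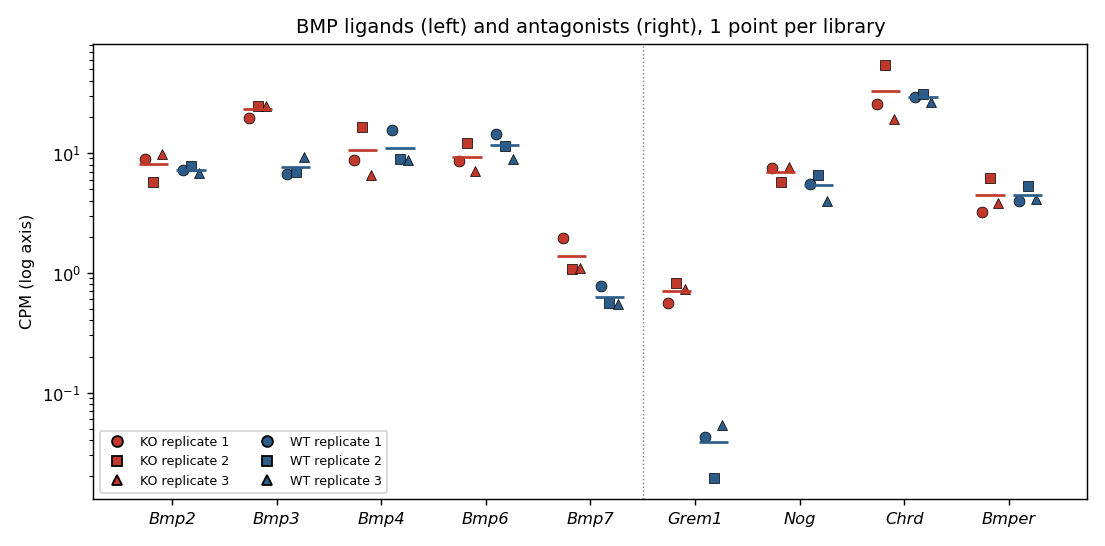
CPM (log axis) of the 5 ligands and 4 antagonists in each of the 3 KO (red) and 3 WT (blue) libraries; horizontal lines are group means and the symbol gives the replicate. KO points stand wholly above WT points for Bmp3, Bmp7 and Grem1 and overlap them for the other 6 genes.

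Bmp7, an epithelial and stromal ligand in many organs, likewise had groups that did not overlap. Its gene (ENSMUSG00000008999) lies on the minus strand of mm10 chromosome 2 at 172868012 to 172940321. It had 1.94, 1.08 and 1.10 CPM in KO replicates 1, 2 and 3, against 0.772, 0.559 and 0.553 CPM in WT replicates 1, 2 and 3. KO replicate 1 was the highest, and it was also the library with the most placental RNA. The fitted log2 change was 1.14 ± 0.34, and 0.80 without KO replicate 1; the part of placental RNA in it was not tested.

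The remaining ligands, Bmp2 on mm10 chromosome 2 (133552159 to 133562885), Bmp4 on chromosome 14 (46383520 to 46390669) and Bmp6 on chromosome 13 (38345107 to 38500302), overlapped between genotypes. Bmp2 averaged 8.16 ± 2.19 CPM in KO (5.70 to 9.88) and 7.24 ± 0.467 CPM in WT (6.80 to 7.73), a log2 change of 0.17 ± 0.23. Bmp4 averaged 10.5 ± 5.18 CPM in KO and 11.0 ± 3.84 CPM in WT, a log2 change of −0.06 ± 0.38 whose sign turned when KO replicate 1, KO replicate 3 or WT replicate 1 was left out. Bmp6 averaged 9.21 ± 2.55 CPM in KO (7.10 to 12) and 11.6 ± 2.70 CPM in WT (8.97 to 14.4), a log2 change of −0.33 ± 0.26. For none of these 3 did the difference exceed the spread between animals. The Bmp6 counts are uncertain: on the other strand Txndc5, a gene with 78152 counts over the 6 libraries against 3269 for Bmp6, shares 224 exonic bases with it. Whether reads were counted by strand is unstated in the sources used here. Txndc5 itself averaged 257 ± 32.8 CPM in KO and 235 ± 10.8 CPM in WT.

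Of the 4 antagonists, Grem1 alone had groups that did not overlap. The others are Nog on mm10 chromosome 11 (89300638 to 89302332), Chrd on chromosome 16 (20733127 to 20742384) and Bmper on chromosome 9 (23223076 to 23485200). Nog averaged 6.94 ± 1.09 CPM in KO (5.70 to 7.71) and 5.37 ± 1.30 CPM in WT (4.0 to 6.57), a log2 change of 0.37 ± 0.24. Chrd averaged 33.1 ± 18.9 CPM in KO and 29.1 ± 2.31 CPM in WT, a log2 change of 0.19 ± 0.36 that became −0.38 without KO replicate 2. Bmper averaged 4.42 ± 1.59 CPM in KO (3.22 to 6.22) and 4.46 ± 0.693 CPM in WT (4.01 to 5.26), a log2 change of −0.01 ± 0.29 whose sign turned in 5 of 13 alternatives. The groups overlapped for these 3 genes. Chrd overlaps Thpo on the other strand, with 239 shared exonic bases and counts equal to 9.27% of its own. Bmp4 overlaps Gm15217 (89 shared exonic bases) and Gm15222 (0) on the other strand, with counts equal to 11.1% of its own.

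In all, 3 of 9 members had every KO library above every WT library, where 7.22% of the 19599 tested genes did, and 0 of 9 had every KO library below, where 7.01% did. The log2 change was above 0 for 6 of 9 members, against 52.1% of tested genes, and at least 1 for 3 of 9, against 3.88%. By edgeR's quasi-likelihood test with Benjamini-Hochberg adjustment 0 of 9 members passed an adjusted p of 0.05, where 0.0204% of tested genes did (4 genes, all lower in KO). DESeq2 on the same counts called 2 of 9, Grem1 and Bmp3, where it called 1.84% of 20596 genes (1.19% higher and 0.646% lower). Because the same contrast picked the set, nothing is read from these counts.

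**Figure D2:**
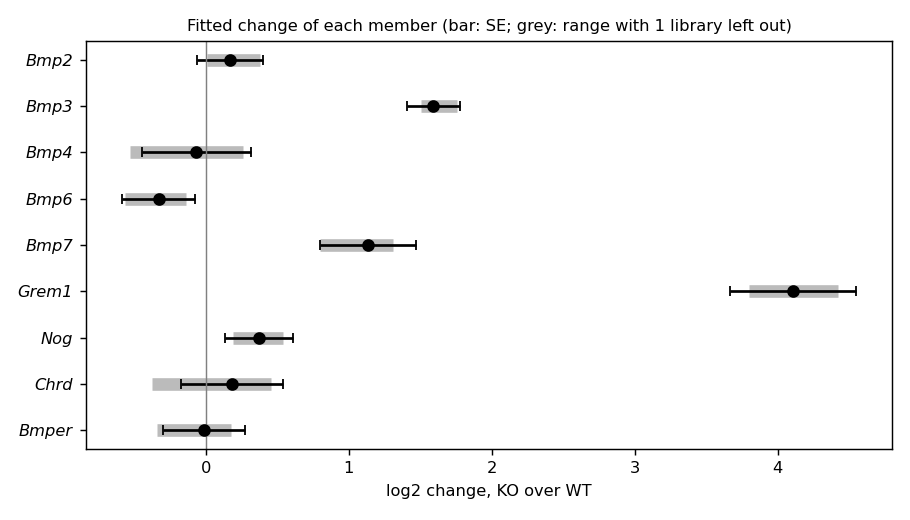
Fitted log2 change, KO over WT, of each member (point) with its standard error (black bar) and the range of values when any 1 library was left out (grey bar). Grem1 lies near 4.11, Bmp3 near 1.59 and Bmp7 near 1.14, and the grey bars of Bmp4, Chrd and Bmper cross 0.

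The spread among animals was not the same for all members. Chrd had 25.4, 54.6 and 19.2 CPM in KO replicates 1, 2 and 3, against 29.3, 31.2 and 26.6 CPM in WT replicates 1, 2 and 3. Bmp4 had 8.74, 16.4 and 6.49 CPM in KO, against 15.5, 8.96 and 8.65 CPM in WT. Chrd, Bmp4 and Bmper each reached their highest value of the 6 libraries in KO replicate 2, the library with the highest smooth muscle sum. Chrd and Bmp4 had their lowest values in KO replicate 3, where that sum was lowest. The endothelial marker sum had the same extremes. It was 627.1, 833.5 and 461.5 CPM in KO replicates 1, 2 and 3, against 614.3 to 711.8 CPM in WT. Bmp2 and Nog ran the other way within KO: Bmp2 had 8.91, 5.70 and 9.88 CPM and Nog 7.43, 5.70 and 7.71 CPM in KO replicates 1, 2 and 3. As a share of the mean, the SD within KO ran from 12.8% for Bmp3 to 57.2% for Chrd, and within WT from 6.46% for Bmp2 to 45.5% for Grem1, whose WT counts were 1 to 3. Within KO the uterine epithelial marker sum was, like Bmp2 and Nog, lowest in replicate 2 and highest in replicate 3. The part of smooth muscle, endothelial or epithelial content in this spread was not tested.

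Levels were compared between genes as CPM per kb of exon. In KO the order was Chrd (5.28), Bmp4 (4.68), Nog (4.10), Bmp3 (3.12), Bmp6 (2.36), Bmp2 (2.30), Bmper (0.915), Bmp7 (0.342) and Grem1 (0.170). In WT the order was Bmp4 (4.90), Chrd (4.65), Nog (3.17), Bmp6 (2.97), Bmp2 (2.04), Bmp3 (1.04), Bmper (0.924), Bmp7 (0.156) and Grem1 (0.00929). Neighbours from Chrd down to Bmp2 had overlapping ranges in KO, but within libraries Chrd was above Bmp4, Nog above Bmp3 and Bmp3 above Bmp6 in 3 of 3, while Bmp4 was above Nog and Bmp6 above Bmp2 in 1 of 3. Within WT, Bmp4 and Chrd overlapped, as did Nog and Bmp6, and Bmp3 and Bmper; the other neighbours did not overlap. Bmper, Bmp7 and Grem1 were the lowest 3 in KO without overlap. Bmp3 thus stood between Nog and Bmp6 in KO, and beside Bmper in WT.

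Summed over ligands, the level was 11.7, 15.6 and 11.1 CPM per kb in KO replicates 1, 2 and 3, against 13.7, 10.2 and 9.46 CPM per kb in WT replicates 1, 2 and 3. Bmp3 made up 22.7, 21.5 and 30.2% of that ligand sum in KO, against 6.61, 9.28 and 13.3% in WT. The ligand sums overlapped while the Bmp3 share did not. Summed antagonists were 9.24, 13.6 and 8.58 CPM per kb in KO, against 8.79, 9.96 and 7.48 CPM per kb in WT. The groups overlapped, and the antagonist sum was higher in KO in 3 of 3 pairs of the same replicate number (the ligand sum in 2 of 3). These pair counts are a description only. Grem1 supplied 1.46, 1.47 and 2.06% of the antagonist sum in KO, against 0.118, 0.0466 and 0.173% in WT. Most antagonist RNA was therefore Chrd and Nog in both genotypes. With Bmp3 as a ligand, the antagonist to ligand ratio overlapped, at 0.771 to 0.871 in KO and 0.643 to 0.981 in WT. BMP3 acts against other BMPs in mouse bone, so the overlap is given for that placement only. The Bmp3 share of the ligand sum was higher in every KO library. Since higher Bmp3 in KO was a reason for choosing the set, that share is a description only. The ratio with Bmp3 placed among the antagonists was not tested.

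**Figure D3:**
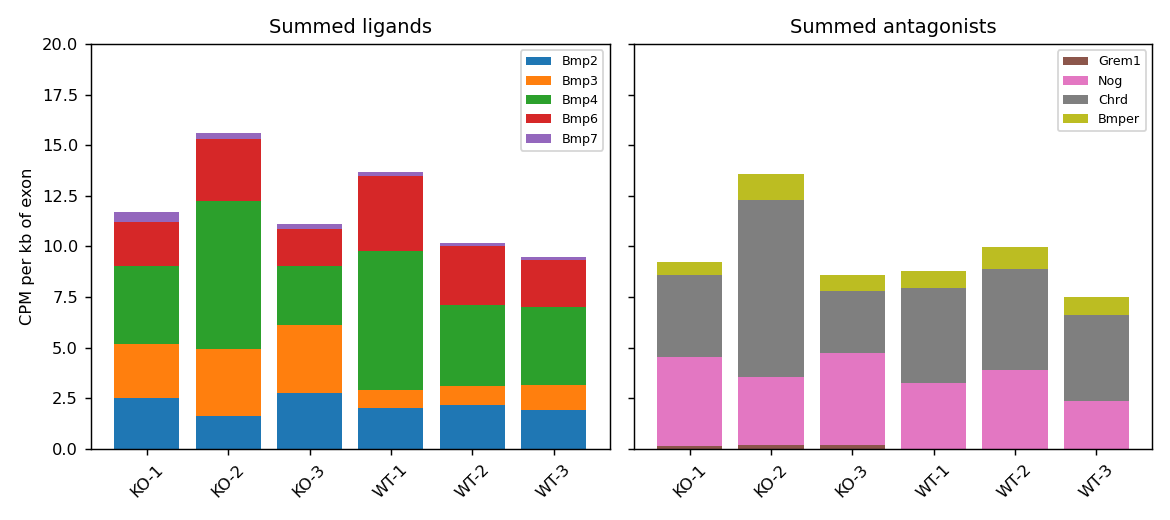
Stacked levels, in CPM per kb of exon, of the 5 ligands (left) and 4 antagonists (right) in each KO and WT library. The Bmp3 segment is taller in the 3 KO libraries (2.66 to 3.36) than in the 3 WT libraries (0.904 to 1.26), and the Grem1 segment is barely visible in KO and not visible in WT.

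Other genes of the pathway were read from the same fit, in 5 lists of 80 genes, of which 68 were tested. By edgeR, 0 were higher and 0 lower at an adjusted p of 0.05 (smallest adjusted p = 0.339), where it called 0.0204% of all tested genes. DESeq2 called 0 as well, where it called 1.84% of 20596 genes. Its smallest adjusted p in the lists was 0.0538, for Msx2. At an unadjusted p under 0.05, 7 were higher and 6 lower, where 8.56% of all tested genes were under it (5.27% higher and 3.29% lower). Of the 68 genes, 6 had every KO library above every WT library, where 7.22% of all tested genes did. Another 7 had every KO library below, where 7.01% did, so separated groups named below are a description. The median log2 change was −0.003 over the 68 genes, against 0.01 over all tested genes. Names below are the genes of smallest p in each list. Counts of same-numbered pairs are given for some of them. The share of all tested genes with such counts was not computed, and nothing is read from them.

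Other BMP and BMP-type GDF ligands (10 of 14 tested) had a median log2 change of 0.24, with 7 positive and 3 negative. Gdf10, also called BMP3b and the closest relative of Bmp3, averaged 13.8 ± 0.773 CPM in KO and 10.3 ± 4.24 CPM in WT. Its groups overlapped, and its log2 change was 0.43 ± 0.27 (edgeR adjusted p = 0.771). Gdf5, a joint-forming ligand, had a log2 change of −0.73 ± 0.43, Bmp8a one of 0.41 ± 0.28 and Gdf11 one of 0.26 ± 0.18. Bmp8a, which is also on the decidual marker list, was higher in KO in 3 of 3 same-numbered pairs.

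Other extracellular modulators (21 of 26 tested, 13 positive and 8 negative) had a median log2 change of 0.06. Tll1, a tolloid protease gene whose product cuts chordin, had 7.59, 11.9 and 15.8 CPM in KO replicates 1, 2 and 3, against 22.6, 18.6 and 26.2 CPM in WT replicates 1, 2 and 3. Every KO value was below every WT value, but the gene did not pass (log2 −0.94 ± 0.27, edgeR adjusted p = 0.368). Vwc2, a chordin-like gene, averaged 0.481 ± 0.219 CPM in KO and 0.192 ± 0.0770 CPM in WT, and Smoc1, a matricellular gene, 179 ± 55.0 CPM in KO and 120 ± 5.98 CPM in WT (edgeR adjusted p = 0.477 and 0.516).

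Receptors and co-receptors (12 of 13 tested, 4 positive and 8 negative) had a median log2 change of −0.09. Bmpr1a, a type I receptor for BMP2 and BMP4, had 113, 146 and 127 CPM in KO replicates 1, 2 and 3, against 224, 180 and 173 CPM in WT replicates 1, 2 and 3. Bambi, a pseudoreceptor without a kinase, had 7.04, 8.15 and 9.10 CPM in KO, against 5.29, 5.68 and 5.03 CPM in WT. The groups separated for both genes, in opposite directions, without passing (log2 −0.58 ± 0.17 and 0.60 ± 0.17, edgeR adjusted p = 0.362 and 0.373). Acvrl1, an endothelial type I receptor, averaged 84.5 ± 10.7 CPM in KO and 66.7 ± 5.06 CPM in WT, and Acvr1 had a log2 change of −0.15 ± 0.12.

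SMADs and their regulators (12 of 12 tested, 3 positive and 9 negative) had a median log2 change of −0.15. Skil, a SMAD co-repressor, had 44.2, 57.3 and 70.2 CPM in KO, against 84.2, 77.8 and 91.5 CPM in WT (log2 −0.56 ± 0.18, edgeR adjusted p = 0.423). Smurf2, a ubiquitin ligase for SMADs and receptors, averaged 77.4 ± 13.7 CPM in KO and 101 ± 4.37 CPM in WT. Smad7 and Smurf1 had log2 changes of −0.29 ± 0.15 and −0.30 ± 0.16. Both were lower in KO in 3 of 3 same-numbered pairs, and neither passed, with or without the replicate block.

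Target genes (13 of 15 tested, 6 positive and 7 negative) had a median log2 change of −0.03. Msx2, a homeobox target of BMP signalling, had 0.808, 0.685 and 0.512 CPM in KO replicates 1, 2 and 3, against 1.86, 1.95 and 1.03 CPM in WT replicates 1, 2 and 3 (log2 −1.26 ± 0.34, edgeR adjusted p = 0.339). Id3, a direct SMAD target, had 35.9, 64.3 and 34.8 CPM in KO, against 28.1, 32.1 and 26.8 CPM in WT (log2 0.63 ± 0.25, edgeR adjusted p = 0.534). Id2 had 20.4, 48.9 and 31.0 CPM in KO, against 17.7, 23.5 and 16.9 CPM in WT, and was higher in 3 of 3 same-numbered pairs. Like Chrd and Bmp4, both Id genes peaked in KO replicate 2. Id1, the most used readout of BMP signalling, averaged 36.8 ± 13.4 CPM in KO and 39.9 ± 1.93 CPM in WT, with overlapping groups. Runx2, a bone transcription factor, averaged 5.51 ± 1.45 CPM in KO and 3.21 ± 0.323 CPM in WT (edgeR adjusted p = 0.418).

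**Figure D4:**
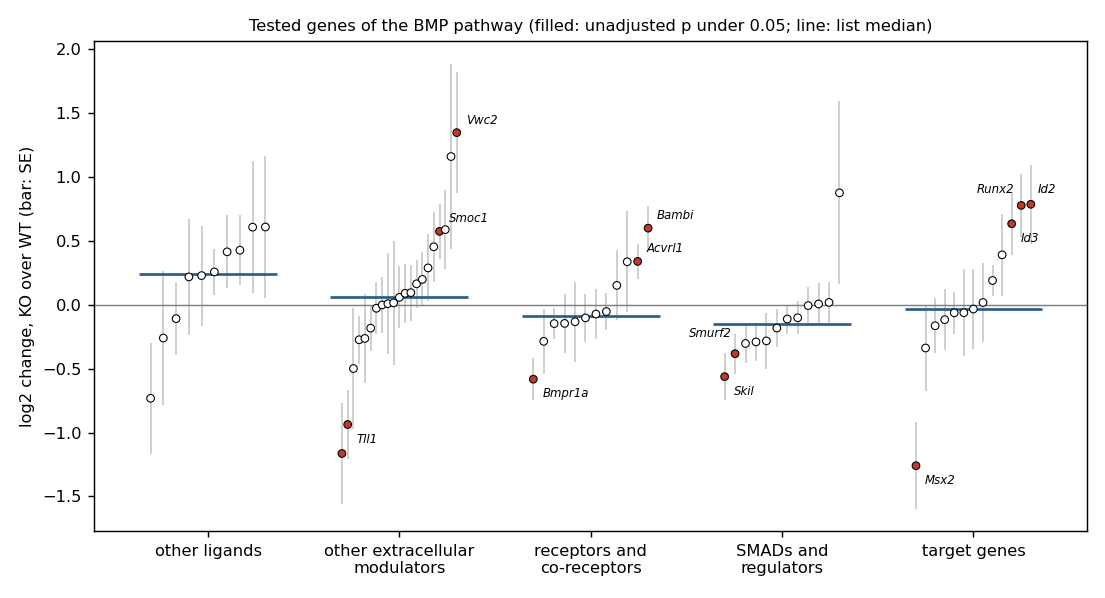
Log2 change, KO over WT, with standard error, of the 68 tested genes in 5 BMP pathway lists, ordered by value within each list; filled points had an unadjusted p under 0.05 (none passed after adjustment) and blue lines are list medians. Medians lie between −0.15 and 0.24, with Tll1 and Msx2 near the low end and Vwc2 at the high end.

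Genes near Grem1 and Bmp3 on the chromosome were read from the same fit. Within 500 kb of the start of Grem1, 7 genes were tested and 0 passed by edgeR, where it called 0.0204% of all tested genes. Groups did not overlap for 1 of these 7, and for 1 of 3 tested near Bmp3, where 14.2% of all tested genes did not. Fmn1, which neighbours Grem1 in mouse and human genomes and holds limb enhancers of Grem1 in mouse, had 13.8, 25.6 and 25.2 CPM in KO, against 28.2, 26.3 and 26.3 CPM in WT. Its groups did not overlap, by a small margin in KO replicates 2 and 3, and its log2 change was −0.32 ± 0.23. The other 6, including Scg5 at 70475 bases, had changes of −0.23 to 0.31. Within 500 kb of the start of Bmp3, 3 genes were tested and 0 passed by edgeR. Prkg2, a cGMP-dependent protein kinase gene whose start lies 182936 bases away, had 2.78, 6.08 and 4.88 CPM in KO replicates 1, 2 and 3, against 1.35, 1.43 and 1.75 CPM in WT replicates 1, 2 and 3. Its groups did not overlap, and its log2 change of 1.60 ± 0.32 was as large as that of Bmp3 (edgeR adjusted p = 0.232). DESeq2 called Prkg2, and no other gene near Bmp3 or Grem1, where it called 1.84% of 20596 genes. Mir703 had a log2 change of 1.56 ± 0.71 with overlapping groups, and the pseudogene Gm3470 one of −0.14 ± 0.44. Another transcript there, the untested lincRNA 1700010H22Rik (chosen after its values were seen), had 0.233, 0.415 and 0.171 CPM in KO, against 0.0214, 0.0385 and 0.0357 CPM in WT.

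**Figure D5:**
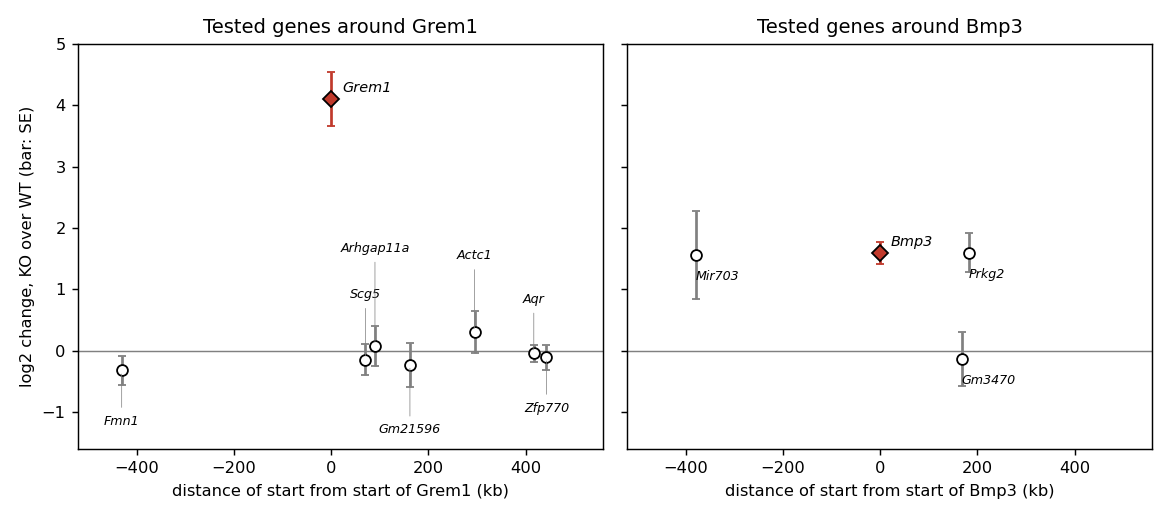
Log2 change, KO over WT, with standard error, of tested genes against the distance of their start from that of Grem1 (left) or Bmp3 (right), both within 500 kb. Genes around Grem1 lie between −0.32 and 0.31 while Grem1 is at 4.11, and Prkg2 at 1.60 lies beside Bmp3 at 1.59.

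The genes most like Bmp3 and Grem1 across the 6 libraries were found among 15046 tested genes with a mean of at least 1 CPM. Likeness was the root mean square difference in log2 CPM, with each gene centred on its own mean. A prior count of 2 was added before the logarithm. To rank high, a gene must have a genotype difference of like size on that scale. For Bmp3 the nearest was Tgfb2, a transforming growth factor beta ligand gene, at 0.131, where the median gene was at 0.858. Tgfb2 had 395, 559 and 653 CPM in KO replicates 1, 2 and 3, against 141, 148 and 223 CPM in WT replicates 1, 2 and 3. As for Bmp3, KO replicate 1 was the lowest of its group and WT replicate 3 the highest of its own. The measure itself selects for such a match within groups. Next came Dpysl5 at 0.188, Cys1 at 0.189, the chemokine gene Cxcl5 at 0.197 and the heparan sulfate sulfotransferase gene Hs3st6 at 0.217. For Grem1 the nearest were Adamdec1, a metalloprotease gene, at 0.524, the digestive glucosidase gene Mgam at 0.538, the sodium channel gene Scnn1g at 0.540, the immunoglobulin segment Igkv4-61 at 0.548 and Nptx1 at 0.588, where the median gene was at 1.69. The fitted log2 changes of these 5 genes were 2.47 to 3.15, against 4.11 for Grem1. With 1 to 3 counts per WT library, Grem1 has a smaller contrast in this measure than in the fit, because of the prior count. Reads of Igkv4-61 can be shared with related segments. Grem1 and Bmp3 were 0.866 apart.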

How the data were processed

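The authors deposited raw counts by Ensembl identifier, library by library, and a table of normalized values for the whole series. Per the submitters' processing notes, FastQC 0.73, HISAT2 2.2.1, HTSeq 0.9.1, DESeq2 2.11.40.7 and mm10 were used, with no role or order. The deposited normalized table holds a signal: raw counts multiplied by a factor fixed within each library (0.804 to 1.26), beside symbols and mm10 positions. Counts were tested with edgeR 4.0.16 in R 4.3.3 (filterByExpr, TMM, quasi-likelihood model of genotype), with p-values adjusted over all 19599 tested genes. Standard errors are the log2 change divided by the root of the F statistic. The code was tested on simulated data. Exon lengths come from GENCODE M21, which held 54804 of 55055 identifiers. Promoter windows are RefSeq's, and only the bases before the start were used.

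Members, gene lists and marker lists were chosen with earlier results of these data known. The text names the members, Tcf23, up to 4 genes of smallest p per pathway list, the 5 genes most like Grem1 or Bmp3, and the neighbour of smallest p, beside genes that a result turns on; 1 gene that this rule selects is not reported here. Alternatives were other scalings and filters, DESeq2 1.42.0, limma 3.58.1 on log2 values (pseudocount 1) of the normalized table the authors deposited, a replicate block, other lengths and leaving out each library. No pair of replicates was alike within sampling noise (chi-square over its degrees of freedom, 32.5 to 209). Replicate numbers are shared between genotypes in the sample titles. Deviations from the group mean correlated at 0.147, 0.196 and 0.217 for libraries of the same number. For the others they correlated at −0.223 to 0.0611. The numbers may therefore pair the libraries, though the correlations are weak. The main fit took no account of pairing, and the replicate block was run as an alternative that does. The sources used here do not say what the numbers mark. Intervals on counts cover counting error only.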

Additional observations from a re-analysis of the deposited data

How the results depend on the processing

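The 0 calls among the 68 BMP pathway genes held under all 13 alternatives, and 64 of them were tested when a CPM of 1 was required of 3 libraries. With the replicate block the pairing changed no call among members, pathway genes or neighbours, and over all genes 2 were higher and 5 lower, against 0 and 4 without it. Counts over all genes moved most with the tool and filter: 4 higher and 8 lower with upper-quartile scaling, 47 and 34 with no filter, and 245 and 133 with DESeq2. With 1 library left out, 0 to 3 were higher and 1 to 4 lower, with 1 lower without WT replicate 1 and likewise without WT replicate 2. DESeq2 called 1 neighbour of Bmp3, Prkg2. Upper-quartile scaling, no filter and DESeq2 called Grem1 and Bmp3, and no alternative called another member. By the longest transcript, WT levels were 6.60 for Chrd and 1.18 CPM per kb for Bmper, which puts Chrd above Bmp4 and Bmper above Bmp3 in WT. With limma the log2 change of Grem1 was 3.68, since the pseudocount understates low genes; the strict filter left Grem1 untested. Depth limits Grem1 in WT, at 1 to 3 counts a library.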

Other observations

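Several ligands of the wider family were close to undetected in this tissue: over the 6 libraries Bmp5 had 11 counts, Mstn 4, Gdf2 3 and Bmp10 2. Gdf7, a ligand of the dorsal spinal cord and of tendon, averaged 17.7 ± 13.8 CPM in KO and 21.1 ± 2.27 CPM in WT (SD, n = 3 each), with overlapping groups and its highest value, 32.8 CPM, in KO replicate 2. Follistatin (Fst), which binds activins and some BMPs, had 31.3, 239 and 49.7 CPM in KO replicates 1, 2 and 3, against 58.8, 56.8 and 27.5 CPM in WT replicates 1, 2 and 3. Its log2 change was 1.16 ± 0.73, and the one KO library above every WT library was KO replicate 2, where Chrd, Bmp4 and Bmper were also at their highest and Id1, Id3 and Id4 reached 52.2, 64.3 and 68.6 CPM, each the highest of the 6 libraries. These genes were chosen after their values were seen, and no cause was tested.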
